A study of Mus musculus with 2 samples.

Results

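mmu-miR-10a, mmu-miR-10b, mmu-miR-196a and mmu-miR-196b are mouse microRNAs (miRNAs) whose genes lie within the Hox gene clusters, and their reads were examined in small-RNA libraries of mouse brain. The 4 members are counted here within a set of 337 miRNAs. They were taken by name from the study's list of known miRNAs, star strands left out. The tag of each, that is a distinct sequence with its read count, was selected on the raw young and old counts of that list, so the same counts that are described here served to find the members. All tags with the same first 18 nucleotides were then added together, and each tag was given to the member with the longest matching start. The pair of counts of miR-10a was held by 2 tags, that of miR-10b by 7 and that of miR-196a by 382954, so the known mature sequence decided among them. miR-196b was not listed there and was counted by its RefSeq mature sequence.

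The study compared small RNAs of the brain between young (5 months) and aged (24 to 25 months) male C57BL/6J mice. There was 1 library for each age, made by combining the separately prepared cDNA libraries of 2 mice, so that the 2 animals of an age cannot be told apart and there is no error between animals for any value. RNA of 18 to 30 nucleotides was cut from a gel before adapters were added. The deposited reads are those that the authors had aligned to the genome, 4523267 in the young and 6658732 in the old library, so that 1 read was worth 0.221 and 0.150 RPM, the number of reads scaled to 1e+06 of these reads.

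miRNAs are short RNAs that guide Argonaute proteins to messenger RNAs, which they recognise mainly through the seed, bases 2 to 8 from the 5′ end. Each is cut from a hairpin precursor, and usually 1 arm of the hairpin is kept. Hox genes encode homeodomain transcription factors that set position along the head-to-tail axis of the embryo, and in the central nervous system they are known chiefly from the hindbrain and spinal cord. The miR-10 genes lie beside Hoxb4 and Hoxd4, and the miR-196 genes lie in the more posterior stretches of the clusters. Both families are known to target Hox messenger RNAs, miR-196 with a near-perfect site in that of Hoxb8.

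The 4 mature sequences, from RefSeq on GRCm38.p6, are printed with the seed in capitals, because the seed divides them into 2 pairs.
miR-10a: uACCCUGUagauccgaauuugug
miR-10b: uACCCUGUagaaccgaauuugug
miR-196a: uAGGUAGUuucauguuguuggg
miR-196b: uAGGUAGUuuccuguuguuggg

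miR-10a and miR-10b share the seed ACCCUGU and are the same at 22 of 23 bases. With positions counted from 1 at the 5′ end, and the base of miR-10a given first, they differ by U12A. miR-196a and miR-196b share the seed AGGUAGU and are the same at 21 of 22 bases, with the difference A12C. In both pairs the differing base lies outside the seed and within the 18 nucleotides used for counting, so a read can be given to 1 member of a pair only through that base. The differing base of the miR-10 pair stands in capitals in the next lines.
miR-10a: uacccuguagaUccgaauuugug
miR-10b: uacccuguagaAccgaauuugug

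Positions are those of perfect matches in NCBIM37 (mm9), the build to which the authors aligned the reads, with the gene annotation of the same build. miR-10a lies at chr11:96178500-96178522 on the plus strand, in an exon of an annotated transcript of Hoxb4, with Hoxb3 and Hoxb5 as the nearest other Hox genes. miR-10b lies at chr2:74564131-74564153 on the plus strand, within introns of annotated transcripts of Hoxd3 and Hoxd4. The mature sequence of miR-196a has 2 sources. One is at chr11:96126501-96126522, upstream of Hoxb9, whose nearest end was 6191 bp from the hairpin. The other is at chr15:102803796-102803817, between Hoxc10 and Hoxc9, whose nearest ends were 1456 and 3004 bp from the hairpin, and in an intron of the predicted gene Gm20398. miR-196b lies at chr6:52180128-52180149 on the minus strand, in a stretch that is exon in some annotated transcripts of Hoxa9 and intron in others. Reads of miR-196a cannot be divided between its 2 loci.

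In these libraries the miR-10 pair was present at moderate to low levels and the miR-196 pair was at the limit of detection. All 4 members together held 522 reads in the young library (0.0115% of reads) and 842 in the old library (0.0126%). In RPM, miR-10b was 3.44-fold higher in the old than in the young library, a size that moves with the scaling and the tags counted. On the same scale miR-10a was 1.29-fold lower, a direction that turns with the scaling and the tags counted. The order of the members by level was miR-10a, then miR-10b, then both miR-196, in each library.

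miR-10a had 457 reads in the young and 520 in the old library. Its level was 101 RPM (exact 95% interval 92.0 to 111) in the young and 78.1 RPM (71.5 to 85.1) in the old library. The log2 ratio of old over young was −0.37 (−0.56 to −0.19), and this direction rests on the scaling, since scaling by edgeR's TMM turned it to 0.34 and scaling by DESeq2 turned it to 0.26. For miR-10b the young library gave 63 reads and the old library 319. Its level was 13.9 RPM (10.7 to 17.8) in the young and 47.9 RPM (42.8 to 53.5) in the old library. The log2 ratio was 1.78 (1.39 to 2.20), against 2.49 by TMM, 2.41 by DESeq2 and 1.03 by the single mature tag. The counting intervals of the young and old library did not overlap for either miRNA. The same held for 186 of 267 known miRNAs with at least 10 reads in a library (69.7%), 23 of them (8.61%) with the higher level in the old and 163 (61.0%) in the young library on this scale, so nothing particular to the pair is read from it. Within a library the intervals of miR-10a and miR-10b did not overlap. All intervals cover counting error only, since reads amplified by PCR without molecular identifiers are not independent molecules, and with 1 library for each age no p-value is given for a difference between ages. In whole tissue, fewer cells of a type that holds a miRNA and less of that miRNA in each cell cannot be told apart.

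**Figure D1:**
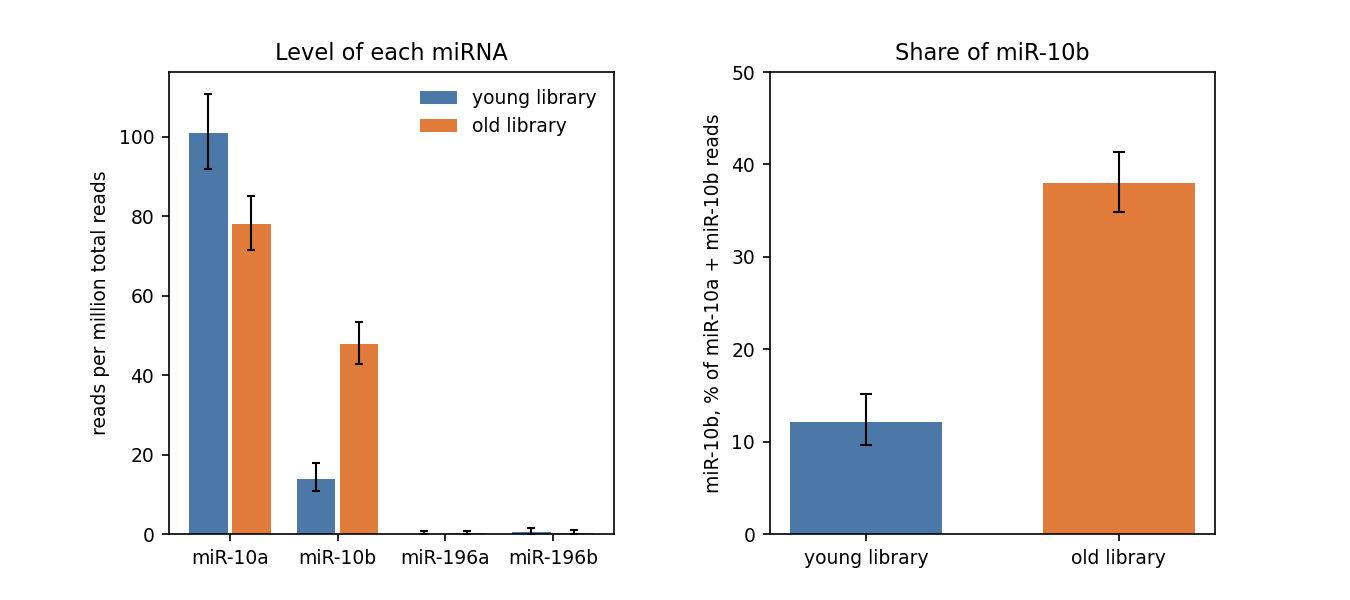
The left plot shows the level of each of the 4 miRNAs in the young and old library, in RPM, as bars with exact 95% counting intervals. The right plot shows miR-10b as a percent of the reads of miR-10a plus miR-10b, with Wilson 95% intervals, and its bars, for all tags of each start, stand at 12.1% (young) and 38.0% (old).

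The balance within the miR-10 pair needs no scaling by depth. miR-10b made up 63 of 520 reads of the pair in the young library, 12.1% (Wilson 95% interval 9.59 to 15.2), and 319 of 839 in the old library, 38.0% (34.8 to 41.4). There were 7.25 reads of miR-10a for each read of miR-10b in the young library and 1.63 in the old library. miR-10a thus remained the more abundant of the pair in both. The difference between their log2 ratios, miR-10b minus miR-10a, was 2.15. By the single tag equal to the mature sequence the share of miR-10b was 18.9% in the young and 29.7% in the old library, and the difference was 0.86. These rest on 10 and 30 reads of miR-10b, the counts that also served to find it, and are given as a description.

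The pair was then placed among the known miRNAs measured in the same libraries. By mean level over the libraries miR-10a (89.6 RPM, rank 127 of 336) stood between miR-376b (94.5 RPM) and miR-151-5p (85.8 RPM), with miR-218 (94.8 RPM) and miR-361 (85.0 RPM) next. These neighbours had log2 ratios of 0.31, −0.58, −0.82 and −0.38, and the ratio of miR-10a lay among them. miR-10b (30.9 RPM, rank 167) stood between miR-144 (31.6 RPM) and miR-370 (30.8 RPM), with miR-384-3p (32.3 RPM) and miR-551b (30.2 RPM) next. Their log2 ratios were −0.75, −1.52, −0.07 and −0.84, so that on this scale none of the neighbours of miR-10b in level was higher in the old library, although miR-384-3p is above 0 under TMM.

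For the ratio, 267 known miRNAs with at least 10 reads in a library served as the background, star strands left out. Among them were 2 of the 4 members, miR-10a and miR-10b. A ratio of at least 2-fold higher in the old library was found for 5 (1.87%) and at least 2-fold lower for 83 (31.1%). This balance turned with the scaling, to 33 higher and 15 lower with TMM and to 25 and 18 with DESeq2. Of the members, 1 was at least 2-fold higher (miR-10b) and 0 were at least 2-fold lower. Since the counts of these libraries were known when the members were chosen, nothing is read from that count. The median log2 ratio of the 267 miRNAs was −0.72, and 49 of them had a ratio above 0. Against this median, miR-10a was 0.35 higher and miR-10b 2.50 higher on the log2 scale. TMM and DESeq2 move the median by 0.71 and 0.63, to −0.01 and −0.09, which is the whole of the shift seen for miR-10a between scalings.

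With all tags of a start added together, miR-10b was place 1 of the 267 by log2 ratio and miR-10a was place 89. By each miRNA's single tag with at least 10 reads in a library, miR-10b was place 4 and miR-10a place 32 of 215. Here miR-10b (10 young and 30 old reads, log2 ratio 1.03) stood below miR-26b at 1.12, let-7f at 1.10 and miR-17 at 1.06. These counts also served to find miR-10b, and the interval of its ratio was −0.04 to 2.22, so this place is a description only. By the summed tags, the other miRNAs at least 2-fold higher were miR-26b at 1.12, let-7f at 1.08, and miR-483 and miR-574-3p at 1.03. The last pair each had 4 reads in the young and 12 in the old library. Star strands are left out of all these placings, also where they were at least 2-fold higher. Among the 225 miRNAs with at least 20 reads in each library, 0 had a ratio above that of miR-10b. The nearest were miR-26b (3576 and 11432 reads), let-7f (279962 and 868430 reads) and miR-374 (43 and 119 reads, log2 ratio 0.91). Nothing is said of shared control from this likeness, which rests on 2 libraries.

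**Figure D2:**
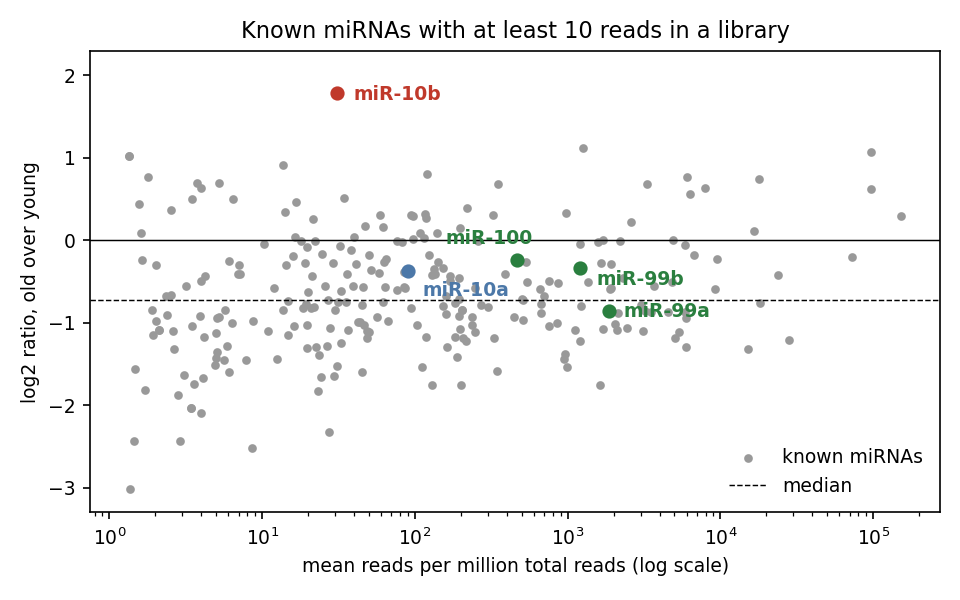
Each point is 1 of 267 known miRNAs, counted by all tags of its start, with the mean level over the young and old library in RPM on a log axis and the log2 ratio of old over young on the vertical axis. miR-10b stands above all other points at 1.78, miR-10a lies at −0.37, and the dashed line marks the median of −0.72.

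A comparison of miRNAs with the same seed was chosen after the data had been seen. Among 75 miRNAs with at least 20 reads in each library there were 103 pairs with a shared seed, from 26 seeds, and the median difference in log2 ratio within a pair was 0.36. The difference of 2.15 between miR-10b and miR-10a was the largest of the 103, followed by 1.53 for miR-16 minus miR-497. This place was not kept by the single tags, where the difference was 0.86 and place 12 of 95 pairs with at least 10 reads of each tag in each library. There the largest was 1.64 for let-7f minus let-7i, and miR-16 minus miR-497 was 1.24. The single-tag counts of miR-10a and miR-10b also served to find them, so their place by single tags is a description only. Pairs from 1 seed family share members and are not independent.

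The relatives of miR-10 outside the Hox clusters, miR-99a, miR-99b and miR-100, are printed for comparison, with their own seed in capitals. They carry the seed ACCCGUA in place of ACCCUGU and lie in clusters with let-7 and miR-125 genes.
miR-99a: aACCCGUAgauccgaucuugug
miR-99b: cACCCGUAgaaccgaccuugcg
miR-100: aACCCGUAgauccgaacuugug

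All 3 relatives were more abundant than miR-10a and miR-10b in both libraries, and each was lower in the old library. miR-99a had 10919 young and 8905 old reads, 2414 and 1337 RPM, with a log2 ratio of −0.85 (−0.89 to −0.81). miR-99b had 6090 and 7110 reads, 1346 and 1068 RPM, with a ratio of −0.33 (−0.38 to −0.28). miR-100 had 2265 and 2823 reads, 501 and 424 RPM, with a ratio of −0.24 (−0.32 to −0.16). The ratio of miR-10a lay within the range of these relatives, and that of miR-10b lay above all 3. Under TMM, which adds 0.71 to every ratio, miR-99b and miR-100 are above 0 as miR-10a is.

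The reads of miR-10a were spread over 22 distinct tags and those of miR-10b over 18. The main tags are printed with the bases after position 18, the part not used for counting, in capitals, since most of the difference between tags lies at the 3′ end.
miR-10a, 22 bases: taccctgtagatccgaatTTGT
miR-10a, 23 bases: taccctgtagatccgaatTTGTG
miR-10b, 22 bases: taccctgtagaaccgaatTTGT
miR-10b, 23 bases: taccctgtagaaccgaatTTGTG

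The most abundant tag of each was 1 base shorter than the RefSeq mature sequence. For miR-10a the tag of 22 bases held 357 young reads, 78.1% (Wilson interval 74.1 to 81.7), and 385 old reads, 74.0% (70.1 to 77.6). For miR-10b it held 43 young reads, 68.3% (56.0 to 78.4), and 250 old reads, 78.4% (73.5 to 82.5). The tag equal to the mature sequence of 23 bases held 43 young (9.41%) and 71 old (13.7%) reads of miR-10a. For miR-10b it held 10 young (15.9%) and 30 old (9.40%) reads.

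Counts by a perfect match to the mature sequence therefore rest on a small part of the reads of either miRNA. Each tag on its own gave another ratio. The 22-base tag of miR-10b had a log2 ratio of 1.98 (1.51 to 2.48) and its 23-base tag had 1.03 (−0.04 to 2.22). The 22-base tag of miR-10a had a ratio of −0.45 (−0.66 to −0.24) and its 23-base tag had 0.17 (−0.40 to 0.75). In each length the tag of miR-10b had the higher ratio, and the intervals of the 2 tags of a miRNA overlapped. At 23 bases the intervals of miR-10a and miR-10b also overlapped. The counts of the 23-base tags served to find the members, so their order is a description only.

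The share of reads with the mature 3′ end was 9.41% (Wilson interval 7.06 to 12.4) for miR-10a and 15.9% (8.86 to 26.8) for miR-10b in the young library. In the old library it was 13.7% for miR-10a and 9.40% (6.67 to 13.1) for miR-10b. The order of the pair was opposite in the libraries and the Wilson intervals overlapped in each. These shares are a description with no test, since the counts of the mature tags also served to find the members.

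**Figure D3:**
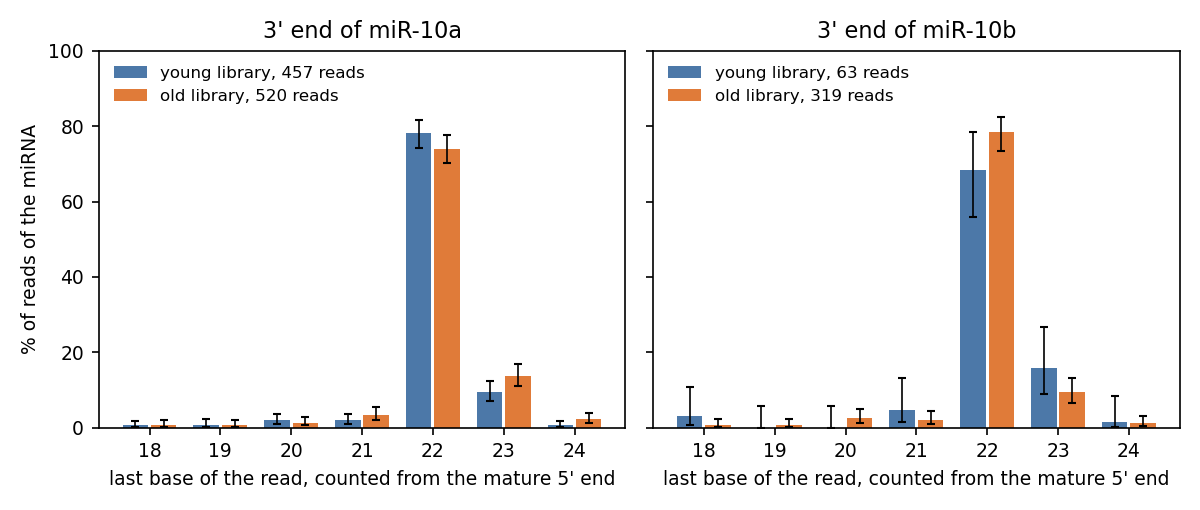
The bars give the percent of reads of miR-10a (left) and miR-10b (right) that end at each base, counted from the mature 5′ end, in the young and old library, with Wilson 95% intervals. Tags that are not an exact part of the hairpin are left out of the bars and kept in the total. The end at base 22 holds 68.3% to 78.4% of reads in every case, and base 23, the RefSeq end, holds 9.40% to 15.9%.

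Ends other than these were few. The tag of 21 bases held 9 young and 18 old reads of miR-10a and 3 and 7 reads of miR-10b. The tag of 24 bases that follows the hairpin held 3 and 12 reads of miR-10a and 1 and 4 reads of miR-10b. Tags that were not an exact part of the hairpin made up 6.35% of miR-10a reads in the young and 3.65% in the old library, and 6.35% and 5.02% of miR-10b reads. Among them, tags that consist of hairpin sequence followed only by A held 10 young and 12 old reads of miR-10a and 3 and 10 reads of miR-10b. Single-base and double-base additions of A to miRNAs are known from terminal nucleotidyl transferases.

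A shift of the 5′ end changes the seed. Tags that start 1 base later than the mature sequence carry the seed CCCUGUA, and the tag of each with the most old reads is printed with that seed in capitals, in DNA letters.
miR-10a, shifted: aCCCTGTAgatccgaatttgt
miR-10b, shifted: aCCCTGTAgaaccgaatttgtgt

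For miR-10a the shifted start made up 13 of 473 young reads, 2.75% (Wilson interval 1.61 to 4.65), and 30 of 555 old reads, 5.41% (3.81 to 7.61). For miR-10b it made up 3 of 66 young reads, 4.55% (1.56 to 12.5), and 47 of 366 old reads, 12.8% (9.80 to 16.7). In the old library the intervals of miR-10a and miR-10b did not overlap, and in the young library, with 3 shifted reads of miR-10b, they did. Shifted starts were not counted for other miRNAs, so nothing particular to the pair or to an age is read from this. The printed tag had 1 young and 12 old reads for miR-10b, against 6 and 14 for miR-10a. Starts 1 base earlier held 3 young and 4 old reads of miR-10a and 0 of miR-10b. These shares were looked at after other values had been seen and were not tested. With the shifted starts added, the log2 ratio was −0.33 for miR-10a and 1.91 for miR-10b.

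Since U12A alone separates the pair, reads of miR-10a misread at base 12 could be counted as miR-10b. Tags with neither member's base at this position, T12C and T12G relative to miR-10a in the DNA letters of the tags, had 3 and 2 reads in the young library and 0 in the old library, and they cannot be given to either member. Over the other 17 positions of the counted start, tags with a single substitution held 55 young and 53 old reads in the case of miR-10a. The most for any single change at those positions was 12 reads in the young library (C4T) and 9 in the old library (C5T). Beside these stand the 63 young and 319 old reads with T12A, which are all the reads counted as miR-10b. Reads of miR-10a misread to A at this base cannot be told apart from miR-10b, and their part in these counts was not tested. For miR-10b itself, single substitutions at the other positions held 8 young and 49 old reads, and the most for a single change in the old library was 12 (T8G).

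The share of reads with an undetermined base was 4.57% in the young and 1.07% in the old library. At base 2 of miR-10a, tags with an undetermined base held 20 young and 2 old reads, and at base 2 of miR-10b they held 4 and 0. When such reads were counted, the log2 ratios were −0.43 and 1.69.

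The miR-196 pair gave 5 reads in all. miR-196a had 0 reads in the young library, where 3 counts are worth 0.663 RPM and the exact 95% interval reaches 0.816 RPM, and 1 read in the old library, or 0.150 RPM (0.0038 to 0.837). miR-196b had 2 reads in each, or 0.442 RPM (0.0535 to 1.60) in the young and 0.300 RPM (0.0364 to 1.08) in the old library. Their intervals overlap with each other and between libraries, and no fold is given. The tags are printed because each member was recognised only by the base in capitals.
miR-196a, 1 old read: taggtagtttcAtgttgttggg
miR-196b, 1 young and 1 old read: taggtagtttcCtgttgttgg
miR-196b, 1 young read: taggtagtttcCtgttgttg
miR-196b, 1 old read: taggtagtttcCtgttgttggat

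The read of miR-196a equals its mature sequence, and the reads of miR-196b include 0 of its full mature sequence. The tag that ends in GGAT does not follow the hairpin. Both members lay far below miR-10b, which had at least 13.9 RPM in each library. A difference between ages was not detectable at this depth for either.

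The opposite arms of the member hairpins were nearly absent. miR-10b-3p had 1 read in each library, and miR-10a-3p, miR-196a-1-3p, miR-196a-2-3p and miR-196b-3p had 0 in both. The 5′ arm therefore held nearly all reads of the miR-10 hairpins. miR-615, which lies within the Hoxc5 gene of the Hoxc cluster, had 1 read of its 3p arm in each library and 1 young and 0 old reads of its 5p arm. Of the 5 Hox-cluster miRNAs looked at, only miR-10a and miR-10b had more than 2 reads in a library.

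Marker miRNAs of brain and of other tissues were measured beside the pair. The brain list (miR-124, miR-9, miR-128) summed to 66625 RPM in the young and 33501 RPM in the old library. All 3 were present in both, as the tissue label states. On this scale all 3 were lower in the old library, with miR-9 at −0.56 (above 0 under TMM). The muscle list, of which 3 of 4 could be counted, summed to 7456 and 10868 RPM. miR-1 alone gave 6223 and 9672 RPM, a log2 ratio of 0.64, and was the only member of that list to be higher in the old library on this scale, with miR-206 at −0.04 (above 0 under TMM). The blood list (3 of 3) summed to 606 and 322 RPM, endothelium (1 of 2) to 52.8 and 46.6 RPM, smooth muscle and fibroblasts (3 of 4) to 6182 and 3591 RPM, and epithelium (4 of 6) to 52.2 and 41.3 RPM. On this scale miR-199a-3p of smooth muscle and fibroblasts was also higher in the old library (289 and 356 RPM, log2 ratio 0.30). So was miR-200b of epithelium (2.87 and 4.05 RPM, log2 ratio 0.50). Under TMM miR-126-5p of endothelium (−0.18 on this scale) and miR-203 of epithelium (−0.01) are above 0 too. None of the counted markers was at 0 in a library. Among the sums, only that of muscle was higher in the old library, as miR-10b was, although under TMM the sums of endothelium and epithelium are higher too. The part of these markers in the difference of miR-10b was not tested.

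Over the 267 miRNAs the log2 ratio was lower by 0.37 for each 10% of GC content, around a mean of 48.6%. miR-10a and miR-10b have the same GC content, 43.5%, so this trend moves both by the same amount and leaves their difference as it was. With the trend removed the log2 ratio of miR-10a was −0.56 and that of miR-10b was 1.59.

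The ratio of the pair was recomputed under 15 other ways of counting and scaling. That of miR-10b ranged from 1.03 to 2.49, and its lowest value, 1.03, came from the single mature tag, whose counts served to find the member and whose own interval was −0.04 to 2.22. That of miR-10a ranged from −0.56 to 0.34, was above 0 under 3 (TMM, DESeq2's size factors and the single mature tag), and was 2-fold changed under 0.

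**Figure D4:**
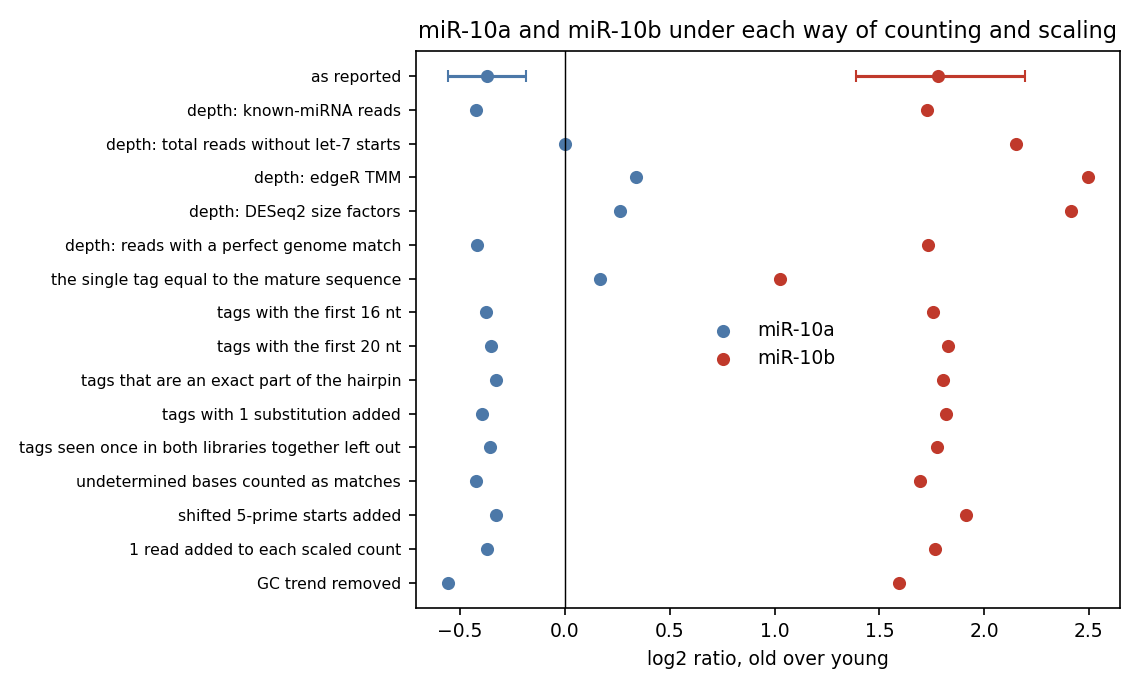
The points give the log2 ratio of old over young for miR-10a and miR-10b as reported, with exact 95% counting intervals, and under each of 15 other ways of counting and scaling, 1 in each line. miR-10b lies between 1.03 and 2.49 throughout, to the right of miR-10a in every line, while miR-10a lies on both sides of 0. Depth scaling and the GC trend move both miRNAs by the same amount, so their order in those lines could not change. The counts of the single-tag line also served to find the members.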

How the data were processed

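Small RNAs were sequenced as 1 library of young and 1 of old mouse brain. The authors removed the 3′ adapter, aligned reads to mm9 with SOAP, collapsed identical reads and deposited the raw count of each aligned sequence, not normalized. No column of another sample was present (0).

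Counts of tags with the same first 18 nucleotides were summed and scaled by the total of these aligned reads (4523267 young, 6658732 old), with 0.5 in place of 0 reads in ratios. Of 558 names in the study's list of known miRNAs, 199 were found through a single tag and 268 through the mature sequence, and 91 were unresolved, which left 336 counted sequences without a star. Mature sequences were from RefSeq, and 4 of 4 members matched. Ratios and RPM carry exact Poisson or binomial (Clopper-Pearson) intervals and shares Wilson intervals, all at 95%. With 1 library per age edgeR's quasi-likelihood test has no residual degrees of freedom and was not fitted, and edgeR 4.0.16 and DESeq2 1.42.0 (R 4.3.3) gave scaling factors only. Other work used Python 3.11.15, numpy 2.4.6 and scipy 1.17.1. A Fisher's exact test planned for the 3′ ends is not given, because its counts also served to find the members. The code was tested on simulated data.

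The members, marker lists and tests were chosen with earlier results of these data known. Named besides the members, by a written rule, are the other arms, miR-615, miR-99a, miR-99b, miR-100, the 2 neighbours in level on each side, and the 3 miRNAs nearest to miR-10b in ratio. miR-483, miR-574-3p, miR-17, miR-16, miR-497 and let-7i fall outside it and were named after their values were seen. Alternatives concerned depth, tags counted, the minimum of reads, GC content and added reads.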

Additional observations from a re-analysis of the deposited data

How the results depend on the processing

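The log2 ratio of miR-10b ranged from 1.03 to 2.49 over 15 alternatives. It was 2.49 with TMM, 2.41 with DESeq2's size factors and 1.03 with the single mature tag, whose counts also served to find the member. The ratio of miR-10a was 0.34, 0.26 and 0.17 under the same 3, −0.0015 with let-7 reads left out of the depth, and −0.56 with the GC trend removed. With TMM and DESeq2 the median of the known miRNAs moves by as much. For the single tag the cause was not tested. By the single tag miR-10b was place 4 by ratio instead of 1, its difference from miR-10a was 0.86 instead of 2.15, and the share of miR-10b was 18.9% young and 29.7% old. The number of known miRNAs at least 2-fold higher, 5 as reported, was 3 with at least 50 reads, 11 with no minimum, 3 scaled by known-miRNA reads, 16 without let-7 reads, 33 with TMM and 25 with DESeq2. The number lower, 83, was 35 without let-7 reads, 15 with TMM and 18 with DESeq2. The 22-base end of young miR-10a was 83.4% of reads that follow the hairpin exactly. The placings by single tag and the alternatives with undetermined bases and with shifted starts were chosen after seeing the data. No paired analysis was possible because there was 1 library for each age, and for the same reason no library could be left out. Depth limits the miR-196 pair most, where 3 counts are worth 0.663 RPM young and 0.451 RPM old.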
